A study of Mus musculus with 12 samples.

Results

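The adipocyte program and lipid storage were followed by RNAseq through 41 genes in the mouse mesenchymal line MPC2. The 41 genes were listed by symbol in 5 roles: 6 transcription factors, 4 adipokines, 13 genes of fatty acid and triglyceride synthesis, 11 genes of the lipid droplet and lipolysis, and 7 genes of uptake, transport and receptors. Of the 41, 38 passed the filter (above 10 counts in 3 libraries or more, of 12) and were tested, among 16484 of the 56350 genes in the table. MPC2 is a conditionally immortalized clone, so every library came from 1 cell line. The libraries made up 4 conditions of 3 each. Undifferentiated cells, labelled MSC, were grown at 33 °C and treated with vehicle (DMSO) or with 50 µM FG-4592 for 48 hours. Cells labelled osteocyte had been kept for 3 weeks at 37 °C in medium with beta-glycerophosphate and ascorbic acid, and then received the same treatments. FG-4592 (Roxadustat) inhibits the prolyl hydroxylases that mark HIF proteins for degradation, and the comparisons asked how it changed the transcriptome in each cell stage.

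White adipocytes arise from mesenchymal progenitors when CEBPB and CEBPD switch on PPARG and CEBPA, which then hold each other on and drive the genes of the mature cell. The mature cell makes fatty acids from citrate and takes others up from lipoproteins, joins them to glycerol as triglyceride, and stores the triglyceride in a droplet coated by perilipins. Lipases on that droplet release the fatty acids again, and the cell secretes hormones such as adiponectin and leptin. Bone marrow stromal cells can enter this lineage or the osteoblast lineage.

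Totals ran from 52829185 to 68108470 counts a library, and a count of 0 allowed up to 3 counts, or 0.0447 to 0.0545 CPM (counts scaled to the size of the library), for counting error only. CPM values here carry TMM factors, and levels of different genes are compared only per kilobase of gene length (FPKM). The labels do not say that the 3 libraries of a condition came from separate cultures, so the p-values measure the spread between these libraries. Of the defining osteocyte markers Sost, Mepe and Pdpn were at the floor in the 12 libraries, while Dmp1 reached 4.05 ± 0.831 FPKM (SD, n = 3) and Phex 9.16 ± 1.01 FPKM in vehicle-treated osteocytes. The summed level of 5 macrophage and blood markers stayed at or below 1.71 CPM, and that of 4 endothelial markers at or below 2.64 CPM. In bulk RNA a change in the number of cells of a type and a change in RNA per cell cannot be told apart, and temperature and medium changed together with differentiation.

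**Figure D1:**
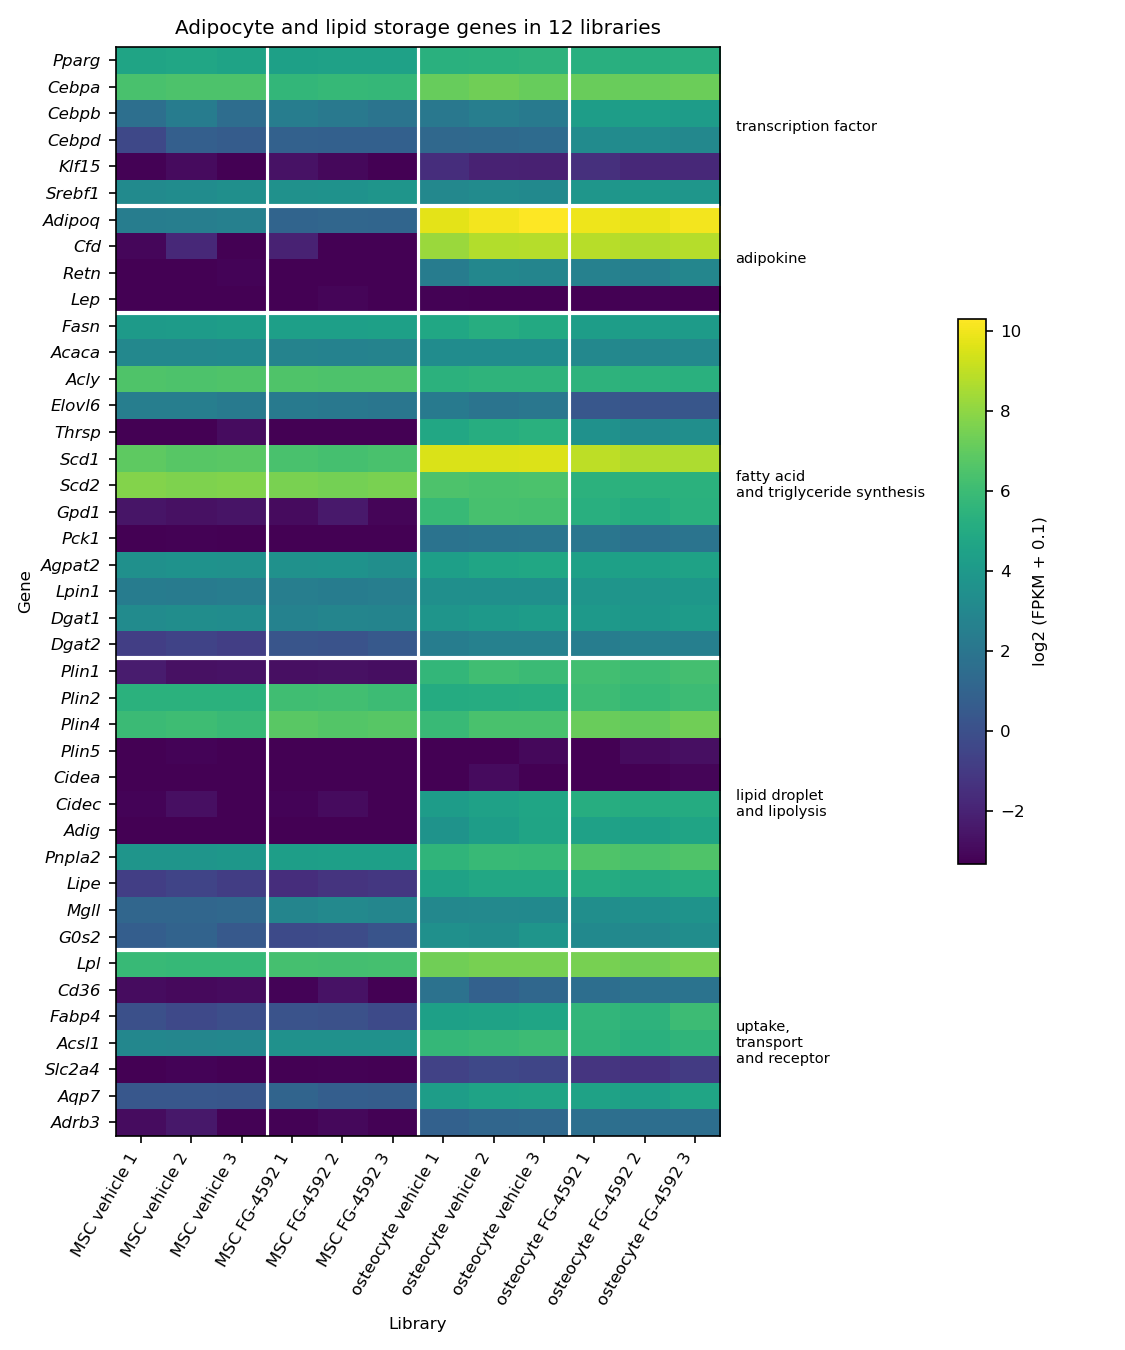
Level of each listed gene in each of the 12 libraries, with genes in rows grouped by role and libraries in columns grouped by condition. Colour gives log2 of FPKM with a small value added, from dark for low to bright for high. Adipoq, Cfd, Plin1, Gpd1, Thrsp and Cidec are brighter in the 6 osteocyte libraries than in the 6 MSC libraries. Lep, Plin5 and Cidea are dark in each library.

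Of the 7 white adipocyte markers, 6 were detected in the osteocyte libraries, at levels that differed widely, and Adipoq and Fabp4 made up almost all of the marker counts in MSCs. Adipoq, which encodes adiponectin, averaged 1064 ± 195 FPKM (SD, n = 3) in vehicle-treated osteocytes and 5.63 ± 0.343 FPKM in vehicle-treated MSCs. It ranked 14 of 16484 tested genes by FPKM in those osteocytes, above Col1a1, the main collagen of bone, at 419 ± 38.7 FPKM. Plin1, the perilipin of the adipocyte droplet, averaged 60.9 ± 7.97 FPKM against 0.0698 ± 0.0278 FPKM. Lep, which encodes leptin, was at the floor in each condition.

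Among the 28 tested members that passed the count rule in the MSC libraries alone, 15 were higher and 2 lower in vehicle-treated osteocytes past both cutoffs, that is, more than 1 away from 0 in log2 fold change with an edgeR adjusted p under 0.05. Over all genes tested, 9.83% were higher and 6.08% lower past both cutoffs. The median log2 fold change of the 28 was 1.07, beside −0.01 over all genes tested. The other 10 tested members passed the count rule only through the osteocyte libraries. They therefore had to differ between the stages, and their counts are not read as a result. These 10 were Adig, Adrb3, Cd36, Cfd, Cidec, Klf15, Pck1, Retn, Slc2a4 and Thrsp.

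The transcription factors that passed the count rule in MSC libraries alone differed between the stages by less than the fold cutoff. Pparg, the nuclear receptor that commits cells to fat, averaged 73.9 ± 3.89 CPM in MSCs and 122 ± 6.27 CPM in osteocytes (log2 fold change 0.73, SE 0.052, edgeR adjusted p = 7.21e-09). Cebpa, its partner in the mature cell, averaged 232 ± 10.8 and 387 ± 28.5 CPM (log2 fold change 0.74, SE 0.0595, edgeR adjusted p = 3.04e-08). Both were already expressed before differentiation, with Pparg at 25.0 ± 1.32 FPKM and Cebpa at 87.8 ± 4.10 FPKM in vehicle-treated MSCs. Cebpd rose by 0.97 on the log2 scale (adjusted p = 0.000788, edgeR), just under the fold cutoff, which it passed in limma voom (1.05) and without any 1 of 4 libraries (1.25 without MSC vehicle replicate 2), while Cebpb (0.40, adjusted p = 0.0849, edgeR) and Srebf1, the regulator of lipogenic enzymes (−0.17, adjusted p = 0.0817, edgeR), did not pass the test. Plin5 coats droplets in oxidative tissue and Klf15 is a late adipogenic factor. Klf15 held 1, 5 and 0 counts in the vehicle-treated MSC libraries and 46, 23 and 23 in the vehicle-treated osteocyte libraries, and of the members that passed the count rule it held the fewest counts. Plin5, which did not pass it, held 0, 1 and 0 counts in vehicle-treated MSCs, 0, 0 and 0 in treated MSCs, 0, 0 and 3 in vehicle-treated osteocytes and 0, 4 and 6 in treated osteocytes.

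Adipoq was higher in osteocytes, Cfd and Retn passed the count rule only through osteocyte libraries, and Lep was at the floor in both stages. Adipoq (ENSMUSG00000022878.5, chromosome 16, 23146536 to 23158028, mm10) measured 7.45, 7.55 and 8.31 CPM in the vehicle-treated MSC libraries and 1193, 1487 and 1730.4 CPM in the vehicle-treated osteocyte libraries (log2 fold change 7.56, SE 0.133, edgeR adjusted p = 4.34e-16). Cfd, which encodes the complement protease adipsin, measured 0.0182, 0.184 and 0 CPM and 276, 395 and 404 CPM. Cfd thus went from about the counting floor to 389 ± 77.4 FPKM, rank 64 of the tested genes. Retn, which encodes resistin, held 0, 0 and 1 counts in the vehicle-treated MSC libraries and 8.12, 12.2 and 11.4 CPM in the osteocyte libraries. Lep (ENSMUSG00000059201.12, chromosome 6, 29060220 to 29073877) held 0, 0 and 0 counts in vehicle-treated MSCs, 0, 3 and 0 in FG-4592-treated MSCs, 1, 0 and 0 in vehicle-treated osteocytes and 0, 1 and 0 in FG-4592-treated osteocytes.

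The 250 bases before the RefSeq start site (GRCm38.p6) of Adipoq, Plin1 and Lep are shown because the first pair were among the members that differed most between the stages and Lep is the adipocyte hormone that stayed at the floor. They are read 5′ to 3′ on the strand of the gene, and capitals mark a relaxed C/EBP motif, TTGCNNAA on either strand.
Adipoq, chr16:23146286-23146535, plus strand: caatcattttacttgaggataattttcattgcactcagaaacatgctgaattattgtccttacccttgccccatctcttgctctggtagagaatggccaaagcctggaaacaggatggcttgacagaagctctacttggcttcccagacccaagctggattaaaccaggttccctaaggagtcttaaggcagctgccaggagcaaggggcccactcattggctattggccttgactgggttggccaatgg
Plin1, chr7:79732777-79733026, minus strand: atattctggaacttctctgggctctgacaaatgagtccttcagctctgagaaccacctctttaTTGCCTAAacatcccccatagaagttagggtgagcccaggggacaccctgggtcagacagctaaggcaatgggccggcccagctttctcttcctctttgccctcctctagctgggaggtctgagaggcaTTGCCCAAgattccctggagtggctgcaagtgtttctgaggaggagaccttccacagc
Lep, chr6:29059971-29060220, plus strand: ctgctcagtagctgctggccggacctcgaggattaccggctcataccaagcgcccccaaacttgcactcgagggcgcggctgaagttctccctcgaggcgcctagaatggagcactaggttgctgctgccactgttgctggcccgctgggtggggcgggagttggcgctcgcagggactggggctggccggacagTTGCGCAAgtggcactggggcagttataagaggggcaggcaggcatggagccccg
The relaxed motif occurred at 2 places in the Plin1 window, the first base of each lying 187 and 58 bases before the start, and at none in the Adipoq window. The Lep window held the full palindrome TTGCGCAA 55 bases before the start, a string found in 0.183% of the 32851 RefSeq promoters of 300 bases, although the gene had next to no counts. The 30 members with a RefSeq entry had 40 promoters, of which 4 held TTGCNNAA, where 10.8% of all promoters did, and none held AGGNCA with a second AGGNCA 1 base further on, the direct repeat read by PPARG with RXR, which 0.381% of all promoters held.

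**Figure D2:**
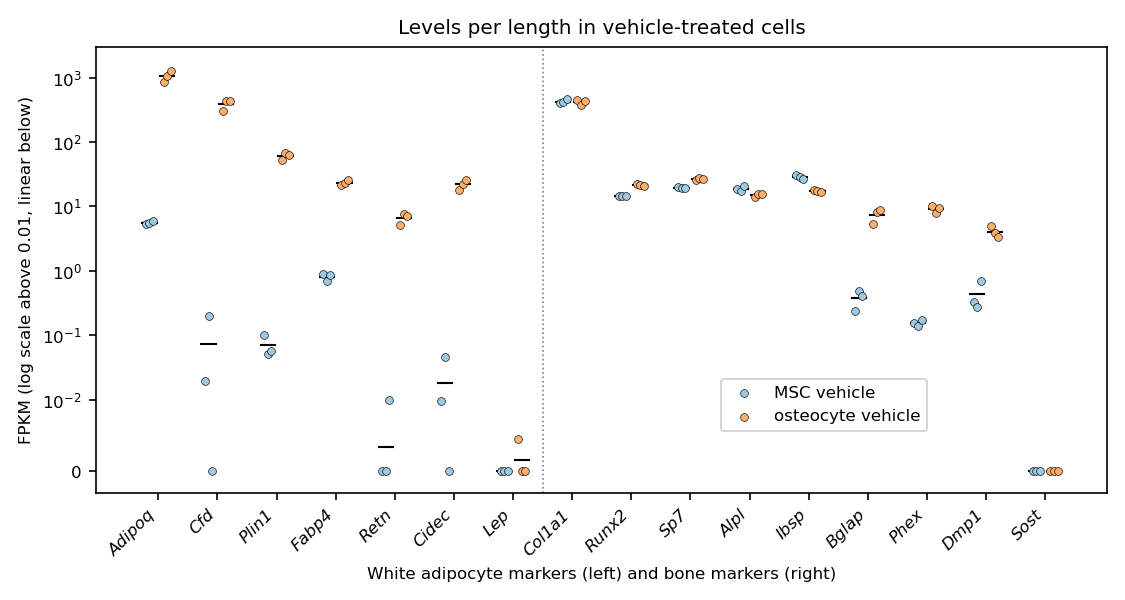
Level per length in FPKM of 7 white adipocyte markers and 9 bone markers in the vehicle-treated libraries, on an axis that is logarithmic above 0.01 and linear below, with a point for each library and a bar for the mean of 3. Adipoq, Plin1 and Fabp4 are separated between MSCs and osteocytes, as are Cidec, Cfd and Retn, which passed the count rule only through osteocyte libraries, with Adipoq at 1064 FPKM in osteocytes above Col1a1 at 419 FPKM, and Sost is at 0 in both.

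Genes of fatty acid and triglyceride synthesis differed in both directions between the stages. Scd1, the desaturase that makes oleate, averaged 559 ± 21.8 CPM in vehicle-treated MSCs and 3637 ± 72.3 CPM in vehicle-treated osteocytes (log2 fold change 2.703, SE 0.068, edgeR adjusted p = 1.81e-14). Scd2, its paralog on the same chromosome, went the other way, from 1159 ± 40.9 to 474 ± 16.6 CPM (log2 fold change −1.29, SE 0.0446, edgeR adjusted p = 9.88e-13). Per length, Scd2 was therefore the higher of the desaturase pair in MSCs (212 against 114 FPKM) and Scd1 the higher in osteocytes (744 against 86.7 FPKM).

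Gpd1, which makes the glycerol backbone from a glycolytic intermediate, averaged 0.186 ± 0.0339 CPM in vehicle-treated MSCs and 214 ± 38.7 CPM in vehicle-treated osteocytes (log2 fold change 10.16, SE 0.227, edgeR adjusted p = 4.96e-15). Thrsp, a lipogenic protein of adipose tissue and liver, held 0, 0 and 5 counts in the MSC libraries and 61.6, 79.0 and 86.4 CPM in the osteocyte libraries. Pck1, the enzyme of glyceroneogenesis, held 0, 1 and 0 counts and 12.2, 12.9 and 13.7 CPM. Thrsp and Pck1 passed the count rule only through osteocyte libraries and had to differ, so this contrast is not read as a result for them. Dgat2, which adds the last fatty acid of triglyceride, averaged 1.55 ± 0.151 and 18.5 ± 1.48 CPM (log2 fold change 3.57, SE 0.124, edgeR adjusted p = 1.02e-12), and Dgat1, the second enzyme of that step, 29.9 ± 1.22 and 48.7 ± 6.40 CPM (log2 fold change 0.70, SE 0.0899, edgeR adjusted p = 6.77e-06). Agpat2 (1.06) and Lpin1 (1.07), which act before them in the glycerol pathway, were just past the fold cutoff. Acly, which splits citrate to acetyl-CoA, fell by 1.02 on the log2 scale from 479.5 ± 12.1 to 237 ± 7.45 CPM (adjusted p = 4.24e-11, edgeR), while Fasn, the fatty acid synthase, rose by 0.81 (adjusted p = 7.71e-08, edgeR). The call of Acly at the fold cutoff was lost without any 1 of 5 of the 6 vehicle-treated libraries, at −0.95 without osteocyte vehicle replicate 1, and that of Agpat2 without osteocyte vehicle replicate 3, at 0.96.

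Among the droplet coat and lipolysis genes, Plin1 (ENSMUSG00000030546.14, chromosome 7, 79720218 to 79732903) measured 0.472, 0.234 and 0.267 CPM in the vehicle-treated MSC libraries and 244, 318 and 288 CPM in the osteocyte libraries (log2 fold change 9.78, SE 0.154, edgeR adjusted p = 1.08e-16). Cidec, which fuses small droplets into a large one, measured 0.0182, 0.0835 and 0 and 33.9, 41.02 and 47.9 CPM. Adig, a small adipocyte membrane protein, had no count in any MSC library and 10.3, 15.3 and 19.96 CPM in the vehicle-treated osteocyte libraries. Cidec and Adig passed the count rule only through osteocyte libraries and had to differ, so this contrast is not read as a result for them. Of the coat proteins that other cells also use, Plin2 was lower in vehicle-treated osteocytes (log2 fold change −0.26, SE 0.0582, edgeR adjusted p = 0.00142) and Plin4 higher by 0.26 (adjusted p = 0.0374, edgeR), with overlapping libraries and a call that ended when single libraries were left out (adjusted p up to 0.147). Cidea, the partner of Cidec in brown fat, did not pass the count rule and reached at most 2 counts in a library. Of the lipases, Lipe, hormone-sensitive lipase, averaged 3.00 ± 0.483 and 156 ± 20.1 CPM (log2 fold change 5.70, SE 0.129, edgeR adjusted p = 6.1e-15) and Pnpla2, which cuts the first fatty acid, 42.4 ± 2.02 and 164 ± 16.2 CPM (log2 fold change 1.95, SE 0.0691, edgeR adjusted p = 1.29e-12). Mgll, which cuts the last, averaged 11.2 ± 0.42 and 42.5 ± 1.21 CPM (log2 fold change 1.93, SE 0.0781, edgeR adjusted p = 6.54e-12), and G0s2, the inhibitor of Pnpla2, rose by 2.88 (adjusted p = 1.45e-09, edgeR).

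Of the 7 genes of uptake, transport and receptors, Lpl, Fabp4, Aqp7 and Acsl1 passed the count rule in the MSC libraries alone, and these 4 were higher in vehicle-treated osteocytes past both cutoffs, as were 9.83% of all genes tested. Cd36, Adrb3 and Slc2a4 passed the rule only through osteocyte libraries, and their levels are given without a count. Lpl, the lipase that frees fatty acids from lipoproteins, was high in both stages, at 56.5 ± 0.284 FPKM in MSCs and 176 ± 10.3 FPKM in osteocytes (log2 fold change 1.64, SE 0.0532, edgeR adjusted p = 4.42e-13). Fabp4, the adipocyte fatty acid carrier, averaged 3.65 ± 0.474 and 104 ± 10.1 CPM (log2 fold change 4.84, SE 0.155, edgeR adjusted p = 3.82e-13), and Aqp7, the glycerol channel, 3.34 ± 0.0732 and 63.1 ± 7.90 CPM (log2 fold change 4.24, SE 0.13, edgeR adjusted p = 2.21e-13). Acsl1, which joins fatty acids to CoA, rose by 2.93 (adjusted p = 3.7e-14, edgeR). Cd36, a fatty acid receptor, reached 12.3, 6.33 and 7.89 CPM. Slc2a4, the insulin-regulated glucose carrier, reached only 1.90, 2.34 and 2.11 CPM. Adrb3, the beta-adrenergic receptor of adipocytes, averaged 0.142 ± 0.135 CPM in MSCs and 7.10 ± 1.01 CPM in osteocytes. In FPKM Slc2a4 averaged 0.608 in vehicle-treated osteocytes, far under Adipoq or Plin1.

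Of the brown adipocyte markers, Ucp1 and Elovl3 were at the floor in the 12 libraries, as was Cidea. Dio2, which activates thyroid hormone in brown fat and elsewhere, stood apart, at 1.12 ± 0.102 FPKM in vehicle-treated MSCs, 166 ± 14.5 FPKM in vehicle-treated osteocytes and 20.1 ± 0.599 FPKM in FG-4592-treated osteocytes. Prdm16, a determinant of brown fat and the last of these 5 markers, measured 0.799, 1.20 and 0.974 CPM in vehicle-treated MSCs and 0.376, 2.19 and 1.33 CPM in vehicle-treated osteocytes and did not pass the test between them. With FG-4592 it fell in MSCs (log2 fold change −2.03, SE 0.506, edgeR adjusted p = 0.00436) and did not pass the test in osteocytes (−0.04, adjusted p = 0.949, edgeR).

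FG-4592 in MSCs moved 2 members up and 1 down past both cutoffs, where over all genes tested 4.12% were up and 5.17% down. These were Mgll and Dgat2, up, and Adipoq, down. At the adjusted p alone 10 members rose and 10 fell of 38, and over all genes tested 17.6% rose and 20.4% fell. The median log2 fold change of the 28 members that passed in MSC libraries was 0.03, beside −0.05 over all genes tested. None of the 10 members that passed only through osteocyte libraries passed the test in MSCs, where they held few counts.

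Mgll (monoglyceride lipase, ENSMUSG00000033174.17, chromosome 6, 88724412 to 88828360) measured 10.8, 11.1 and 11.6 CPM in the vehicle-treated MSC libraries and 36.7, 42.1 and 37.4 CPM in the FG-4592-treated ones (log2 fold change 1.79, SE 0.0779, edgeR adjusted p = 2.71e-11). Dgat2 measured 1.43, 1.72 and 1.49 CPM and 3.37, 3.16 and 3.98 CPM (log2 fold change 1.18, SE 0.128, edgeR adjusted p = 1.86e-06). Adipoq measured 7.45, 7.55 and 8.31 CPM and 2.702, 3.02 and 2.84 CPM (log2 fold change −1.44, SE 0.132, edgeR adjusted p = 2.5e-07). For each of these members the 3 treated and the 3 vehicle libraries did not overlap.

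At the adjusted p alone, 4 of the 9 tested droplet and lipolysis genes rose in MSCs and 2 fell, and 3 of the 7 uptake genes rose and none fell, beside 17.6% and 20.4% of all genes tested. These totals include Cidec, Adig, Cd36, Adrb3 and Slc2a4, which held few counts in MSCs. Plin4 (0.75), Plin2 (0.74), Acsl1 (0.59), Aqp7 (0.53), Pnpla2 (0.52) and Lpl (0.45) rose on the log2 scale, with edgeR adjusted p-values from 4.03e-08 to 0.00547. Cebpa fell from 232 ± 10.8 to 143 ± 5.69 CPM (log2 fold change −0.70, SE 0.0597, edgeR adjusted p = 1.11e-07) and Pparg by a smaller step (log2 fold change −0.21, SE 0.0521, edgeR adjusted p = 0.0049). G0s2 (−0.89), Lipe (−0.73), Dgat1 (−0.51), Scd1 (−0.48), Elovl6 (−0.32), Acaca (−0.32) and Scd2 (−0.21) fell as well, with adjusted p-values of at most 0.0137 in edgeR. Fasn (0.23) and Srebf1 (0.35) rose. Several of these calls ended under an alternative: those of Aqp7, Lipe and G0s2 in limma voom (adjusted p = 0.158, 0.115 and 0.0531), that of Fasn with library size alone (0.124) and without MSC FG-4592 replicate 3 (0.058), that of Pparg without MSC vehicle replicate 2 (−0.14, adjusted p = 0.0807), and that of Elovl6 without any 1 of 3 libraries (adjusted p up to 0.0919). The summed level of the 7 white adipocyte markers ran from 11.2 to 12.5 CPM in the vehicle-treated MSC libraries and from 6.36 to 7.66 CPM in the treated ones, almost all of it Adipoq and Fabp4. Of the 9 tested osteoblast and osteocyte markers 6 fell in MSCs at the adjusted p, where 20.4% of all genes tested fell. Past both cutoffs 4 fell, where 5.17% of all genes tested did, among them Ibsp (−4.12) and Alpl (−1.99). The whole list of these markers summed to 3005 to 3362 CPM in vehicle and 2753 to 2962 CPM with FG-4592. Summed over the 4 chondrocyte markers the level ran from 80.9 to 90.0 CPM and from 146 to 161 CPM, and both tested ones, Sox9 (0.87) and Col2a1 (0.74), rose at the adjusted p. The part of these markers in the member changes was not tested.

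With FG-4592 in osteocytes 7 of the 13 tested synthesis genes fell and 1 rose, 6 of the 9 tested droplet genes rose and none of them fell, and no adipokine passed the test (edgeR adjusted p alone). Past both cutoffs 3 members were up, where 6.25% of all genes tested were up, and 3 were down, where 4.26% were down. The members up were Cebpb, Cebpd and Fabp4, and those down were Elovl6, Thrsp and Scd2. At the adjusted p alone 11 members rose and 8 fell of 38, beside 21.9% and 22% of all genes tested. The median log2 fold change of the 38 was 0.02, beside 0.0015 over all genes tested. These osteocyte libraries and the vehicle libraries of the stage comparison are the same, so the comparisons share samples.

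Past both cutoffs the rises among the transcription factors were in the early pair. Cebpb (ENSMUSG00000056501.3, chromosome 2, 167688915 to 167690418) measured 6.31, 8.27 and 7.25 CPM in the vehicle-treated osteocyte libraries against 28.9, 29.6 and 27.7 CPM in the treated ones (log2 fold change 1.98, SE 0.182, edgeR adjusted p = 1.88e-07). Cebpd (ENSMUSG00000071637.5, chromosome 16, 15887286 to 15891031) measured 8.83, 9.04 and 9.74 CPM and 34.6, 35.0 and 30.4 CPM (log2 fold change 1.86, SE 0.193, edgeR adjusted p = 8.26e-07). Neither gene's treated libraries overlapped with its vehicle libraries. Both share exonic bases with a neighbouring gene: Cebpb shares 312 of its 1504 bases with Tmem189 and Cebpd 562 of its 3746 with Spidr, and a read pair over shared bases counted for both. Spidr itself moved by 1.58 in osteocytes and 1.70 in MSCs on the log2 scale, and Tmem189 by 0.81 and 0.57, and their part in the change of Cebpd and Cebpb was not tested. The late pair did not pass the test, Cebpa at −0.02 (adjusted p = 0.808, edgeR) and Pparg at −0.11 (adjusted p = 0.0855, edgeR). Srebf1 rose from 49.5 ± 3.24 to 81.3 ± 3.72 CPM (log2 fold change 0.72, SE 0.0772, edgeR adjusted p = 1.24e-06).

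No adipokine passed the test in osteocytes. Adipoq measured 1193, 1487 and 1730.4 CPM in the vehicle-treated libraries and 1385, 1250.4 and 1482 CPM in the treated ones (log2 fold change −0.10, SE 0.0973, edgeR adjusted p = 0.45). Cfd differed by 0.13 (SE 0.153, adjusted p = 0.52, edgeR) and Retn by −0.03 (SE 0.172, adjusted p = 0.908, edgeR). For each of these adipokines the treated and the vehicle libraries overlapped.

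The synthesis genes held most of the falls among members, 7 of 13 at the adjusted p, where 22% of all genes tested fell. Elovl6 (ENSMUSG00000041220.10, chromosome 3, 129532355 to 129638495), which lengthens palmitate, measured 29.1, 23.4 and 26.3 CPM in the vehicle-treated osteocyte libraries against 7.54, 7.19 and 7.51 CPM in the treated ones (log2 fold change −1.82, SE 0.101, edgeR adjusted p = 4.02e-10). Thrsp measured 61.6, 79.0 and 86.4 CPM and 26.1, 20.3 and 22.7 CPM (log2 fold change −1.71, SE 0.147, edgeR adjusted p = 3.07e-07). Scd2 measured 490.2, 457 and 475 CPM and 233, 228 and 227 CPM (log2 fold change −1.05, SE 0.0445, edgeR adjusted p = 1.55e-11). The 3 treated libraries lay below the 3 vehicle libraries for each. Gpd1 fell from 214 ± 38.7 to 109 ± 10.9 CPM (log2 fold change −0.97, SE 0.121, edgeR adjusted p = 6.26e-06), and it passed the fold cutoff without osteocyte vehicle replicate 1, at −1.13. Scd1 fell from 3637 ± 72.3 to 2113 ± 246 CPM (log2 fold change −0.78, SE 0.0642, edgeR adjusted p = 5.09e-08), Fasn from 343 ± 40.5 to 202 ± 8.59 CPM (log2 fold change −0.77, SE 0.0702, edgeR adjusted p = 1.91e-07), and Acaca, which makes malonyl-CoA for Fasn, by a smaller step (log2 fold change −0.33, SE 0.0474, edgeR adjusted p = 2.49e-05). Acaca shares 6118 near-identical bases with the gene Gm5182, and reads that mapped to more than 1 place were not counted. Lpin1 rose (log2 fold change 0.40, SE 0.0492, edgeR adjusted p = 5.37e-06). Acly (−0.09), Pck1 (−0.05), Agpat2 (−0.17), Dgat1 (0.03) and Dgat2 (−0.07) did not pass the test, with adjusted p-values from 0.137 to 0.811 in edgeR.

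Droplet and lipolysis genes that moved in osteocytes moved up, 6 of 9 at the adjusted p and none down. Over all genes tested 21.9% rose and 22% fell. Plin4 rose from 479 ± 84.4 to 946 ± 94.4 CPM (log2 fold change 0.98, SE 0.101, edgeR adjusted p = 6.99e-07). Without osteocyte FG-4592 replicate 2 that value was 1.05, past the fold cutoff, and without osteocyte vehicle replicate 1 it was 0.82. Plin2 rose from 120.2 ± 4.83 to 217 ± 17.5 CPM (log2 fold change 0.85, SE 0.0584, edgeR adjusted p = 5.87e-09) and Pnpla2 from 164 ± 16.2 to 270.1 ± 15.7 CPM (log2 fold change 0.72, SE 0.066, edgeR adjusted p = 1.94e-07). Cidec rose from 40.9 ± 7.02 to 63.1 ± 2.68 CPM (log2 fold change 0.62, SE 0.13, edgeR adjusted p = 0.000915). Mgll (0.47) and Lipe (0.27, adjusted p = 0.0335, edgeR) rose by less, and the call of Lipe ended under other settings (adjusted p up to 0.169) and without single libraries (up to 0.183). Plin1 (0.21, adjusted p = 0.0651, edgeR), Adig (0.26) and G0s2 (−0.37, adjusted p = 0.0728, edgeR) did not pass the test.

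Of the uptake genes Fabp4 measured 95.2, 102 and 115 CPM in the vehicle-treated osteocyte libraries against 222, 199 and 293 CPM in the treated ones, without overlap (log2 fold change 1.19, SE 0.122, edgeR adjusted p = 6.83e-07). Acsl1 fell from 622 ± 57.3 to 477 ± 51.2 CPM (log2 fold change −0.38, SE 0.0723, edgeR adjusted p = 0.000394). Lpl (0.01), Aqp7 (0.03), Cd36 (0.42), Adrb3 (0.49) and Slc2a4 (−0.80, adjusted p = 0.0827, edgeR) did not pass the test. The summed level of the 7 white adipocyte markers ran from 1850 to 2596 CPM in the vehicle-treated osteocyte libraries and from 2191 to 2592 CPM in the treated ones, which overlap. The summed level of 4 chondrocyte markers ran from 107 to 127 CPM and from 365 to 444 CPM in the same libraries, led by Sox9 and Col2a1. Of the 12 osteoblast and osteocyte markers 9 were tested. With FG-4592 8 of them fell in osteocytes at the adjusted p, where 22% of all genes tested fell. Past both cutoffs 5 fell, where 4.26% of all genes tested did. Among these were Phex (57.6 to 2.83 CPM), Dmp1 (11.2 to 2.06 CPM) and Ibsp (35.6 to 12.2 CPM). The 3 not tested, Mepe, Pdpn and Sost, were at the floor. Summed over that list the level ran from 2919 to 3402 CPM and from 2902 to 3819 CPM, most of it Col1a1. The part of these markers in the results above was not tested.

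**Figure D3:**
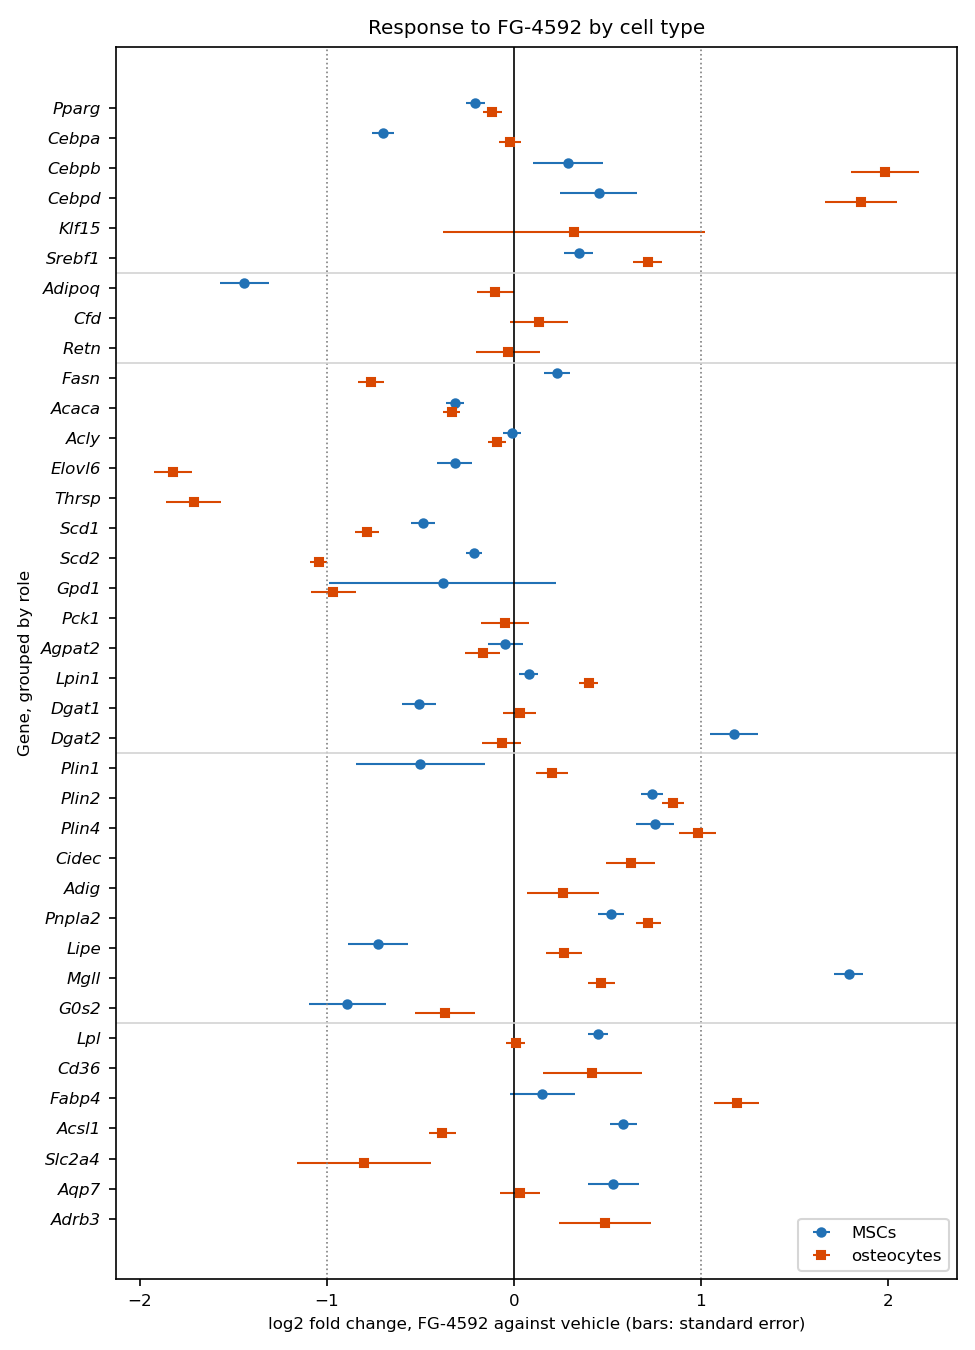
Log2 fold change with FG-4592 against vehicle for members in MSCs and in osteocytes, with a point for the fitted value, a bar of 1 SE to each side and dashed lines at the fold cutoff. Synthesis genes such as Elovl6 and Scd2 lie to the left in osteocytes and droplet genes such as Plin2 and Plin4 to the right in both cell stages.

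The 250 bases before the start of Cebpb, Plin2 and Mgll are shown because these members rose with FG-4592 in 1 or both stages and carry the core of the HIF response element. Capitals mark that core, ACGTG or GCGTG on either strand.
Cebpb, chr2:167688665-167688914, plus strand: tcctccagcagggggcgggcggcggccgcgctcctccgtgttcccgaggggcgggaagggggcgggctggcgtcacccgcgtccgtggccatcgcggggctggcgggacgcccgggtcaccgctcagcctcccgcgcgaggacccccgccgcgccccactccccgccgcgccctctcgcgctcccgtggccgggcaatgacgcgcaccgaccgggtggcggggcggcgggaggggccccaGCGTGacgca
Plin2, chr4:86670060-86670309, minus strand: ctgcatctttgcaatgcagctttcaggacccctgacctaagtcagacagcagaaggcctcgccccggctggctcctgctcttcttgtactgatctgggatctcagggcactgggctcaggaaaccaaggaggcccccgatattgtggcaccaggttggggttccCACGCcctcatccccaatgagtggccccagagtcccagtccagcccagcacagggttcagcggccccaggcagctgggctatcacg
Mgll, chr6:88724162-88724411, plus strand: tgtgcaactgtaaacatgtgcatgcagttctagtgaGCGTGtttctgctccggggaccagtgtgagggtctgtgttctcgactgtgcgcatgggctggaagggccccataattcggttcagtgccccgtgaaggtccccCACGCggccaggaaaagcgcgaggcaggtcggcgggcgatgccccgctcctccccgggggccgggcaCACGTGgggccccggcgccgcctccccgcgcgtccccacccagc
The Cebpb window held 1 match and the Mgll window 4, of which 1 pair overlaps in the palindrome CACGTG. Plin2 held 1 match within these bases and a further overlapping pair across its start. Of the 40 promoters of members, 17 held the core, where 43.8% of all RefSeq promoters held it. Elovl6 and Fasn, which fell in osteocytes, held it too.

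The responses of the stages differed for 8 members past both cutoffs, 5 of them toward higher values in osteocytes, where 3.94% of all genes tested lay, and 3 toward lower values, where 1.07% lay. Of the 28 members that passed in MSC libraries 4 differed upward and 3 downward, and the remaining one, Adrb3, passed only through osteocyte libraries. This contrast takes the change in osteocytes minus the change in MSCs and uses the 12 libraries already described. At the adjusted p alone 10 members differed upward, 9 downward and 19 did not pass, beside 13.3% of all genes tested upward and 11% downward.

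Cebpb had the values 4.596, 7.65 and 4.24 CPM and 8.04, 6.60 and 5.53 CPM in MSCs without and with FG-4592, which overlap and did not pass the test, and its difference was 1.70 (SE 0.259, adjusted p = 0.000169, edgeR). Cebpd had 2.49, 6.13 and 5.39 CPM and 6.61, 6.32 and 6.34 CPM in MSCs, and its difference was 1.40 (SE 0.28, adjusted p = 0.00158, edgeR). Adipoq, which fell in MSCs and not past the test in osteocytes, differed by 1.34 (SE 0.164, adjusted p = 2.16e-05, edgeR). The MSC libraries it rests on held 2.702 to 8.31 CPM of Adipoq and the osteocyte libraries 1193 to 1730.4 CPM.

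Elovl6 fell in osteocytes, and in MSCs by less and with a call that single libraries ended, with 36.1, 36.0 and 29.8 CPM and 29.6, 27.2 and 25.1 CPM in MSCs and a difference of −1.51 (SE 0.137, adjusted p = 9.07e-07, edgeR). Mgll rose in both and by more in MSCs, where it began lower, with 41.2, 42.7 and 43.6 CPM and 54.1, 57.5 and 64.7 CPM in osteocytes and a difference of −1.33 (SE 0.106, adjusted p = 2.27e-07, edgeR). Dgat2, up in MSCs, had 16.8, 19.3 and 19.4 CPM and 16.5, 18.5 and 18.0 CPM in osteocytes, which overlap, and differed by −1.24 (SE 0.165, adjusted p = 4.66e-05, edgeR).

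The calls of Fabp4 and Adrb3 changed when single libraries were left out. Fabp4 had 3.98, 3.11 and 3.87 CPM and 4.58, 4.28 and 3.31 CPM in MSCs and differed by 1.04 (SE 0.211, adjusted p = 0.00184, edgeR), a value that lay under the fold cutoff without any 1 of 6 libraries and was 0.86 without osteocyte FG-4592 replicate 3. Adrb3 differed by 2.37 (SE 0.791, adjusted p = 0.0394, edgeR). That value rested on 7, 17 and 1 counts in the vehicle-treated MSC libraries and 1, 5 and 1 in the treated ones, and it was 1.29 without MSC vehicle replicate 2 (adjusted p = 0.311) and 3.45 without MSC FG-4592 replicate 2. Its adjusted p was above 0.05 when any 1 of 9 of the 12 libraries was left out. In osteocytes Adrb3 measured 5.98, 7.37 and 7.94 CPM and 10.3, 9.76 and 9.81 CPM, without overlap but not past the test.

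Just under the fold cutoff lay Fasn, which rose in MSCs and fell in osteocytes and differed by −0.997 (adjusted p = 2.51e-06, edgeR). Acsl1 likewise rose in MSCs and fell in osteocytes and differed by −0.97 (adjusted p = 5.27e-06, edgeR). Lipe fell in MSCs and rose in osteocytes and differed by 0.996 (adjusted p = 0.00101, edgeR). These 3 differences crossed the fold cutoff under other settings. That of Fasn was −1.02 with DESeq2 and −1.05 without overlapping genes and passed without any 1 of 8 libraries, that of Acsl1 reached −1.08 and passed without any 1 of 6, and that of Lipe was 1.01 with the replicate block and passed without any 1 of 5, though its adjusted p was 0.0505 in limma voom. The calls within a stage did not all hold either. The log2 fold change of Lipe in osteocytes was 0.146 without osteocyte vehicle replicate 1, against 0.268. Plin2 (0.11), Plin4 (0.23), Pnpla2 (0.20) and Acaca (−0.02) had differences with adjusted p-values from 0.141 to 0.887 in edgeR, which did not pass.

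**Figure D4:**
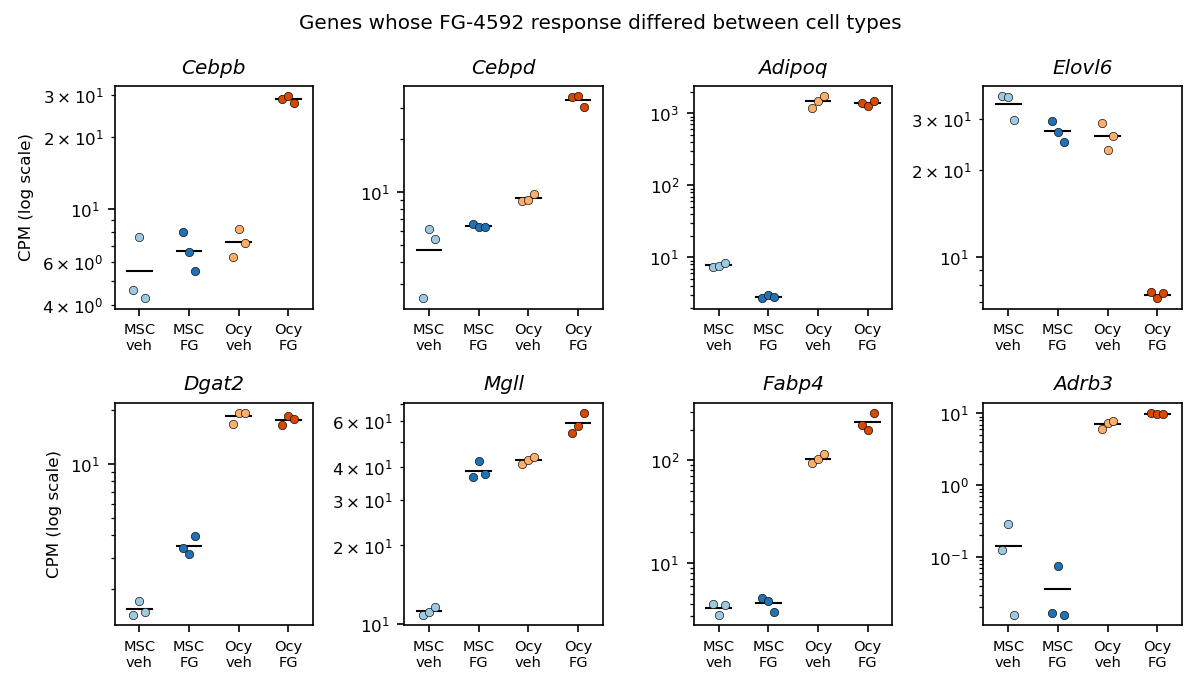
CPM on a log axis in each of the 12 libraries for members whose responses to FG-4592 differed between the stages past both cutoffs, with points for libraries and bars for the mean of 3. Cebpb and Cebpd stand between 27.7 and 35.0 CPM in the FG-4592-treated osteocytes and at 9.74 CPM or below elsewhere, and Mgll and Dgat2 rise in MSCs toward their osteocyte levels.

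With both stages in FG-4592, 17 of the 28 members that passed in MSC libraries were higher in osteocytes past both cutoffs and 3 lower, beside 12.6% and 5.64% of all genes tested. This comparison uses the treated libraries of the contrasts above. Cebpa (1.42 against 0.74 in vehicle), Cebpb (2.10 against 0.40) and Cebpd (2.38 against 0.97) took larger log2 values than in vehicle, and Mgll (0.60 against 1.93) a smaller one. The 3 lower genes were Scd2 (−2.12), Elovl6 (−1.88) and Acly (−1.10).

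A further list of 68 genes of the same pathways, 59 of them tested, held larger rises with FG-4592 than the members past both cutoffs. In MSCs 7 were up and 4 down past both cutoffs, and in osteocytes 10 up and 5 down, against the percentages over all genes given above. Hilpda, a droplet protein that inhibits Pnpla2, rose from 5.33 ± 0.299 to 41.9 ± 1.29 CPM in MSCs (log2 fold change 2.98) and from 4.54 ± 0.431 to 83.7 ± 7.81 CPM in osteocytes (4.21). Vldlr, a receptor that takes up triglyceride-rich lipoproteins, rose from 17.5 ± 1.89 to 182 ± 8.58 CPM in MSCs (3.38) and from 1.87 ± 0.232 to 54.6 ± 3.36 CPM in osteocytes (4.86). Angptl4, the secreted inhibitor of Lpl, rose from 5.90 ± 0.303 to 57.7 ± 2.42 CPM (3.29) and from 26.6 ± 4.11 to 365 ± 29.9 CPM (3.77). The edgeR adjusted p-values of these 3 genes were at most 3.8e-13 in either stage. Lpl itself rose in MSCs and did not pass the test in osteocytes.

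Adipor2, an adiponectin receptor, rose from 154 ± 2.17 to 450.2 ± 12.6 CPM in MSCs (1.55) and from 524 ± 61.7 to 1648 ± 141 CPM in osteocytes (1.65). Slc27a1, a fatty acid transporter, rose in both (1.26 and 1.63), as did Klf4, an early factor of adipogenesis (1.76 and 1.42). Cideb, the third member of the Cidea and Cidec family, fell in both (−1.44 and −1.62) at under 1 CPM. The edgeR adjusted p-values of Adipor2, Slc27a1, Klf4 and Cideb were at most 0.0262 in either stage. The call of Cideb ended when single libraries were left out, with adjusted p up to 0.0995 in MSCs and 0.0587 in osteocytes. Fabp5, the second fatty acid carrier of adipocytes, rose from 13.5 ± 1.45 to 22.3 ± 1.62 CPM in MSCs and fell from 54.9 ± 9.74 to 17.3 ± 2.27 CPM in osteocytes, a difference of −2.39 (SE 0.179, adjusted p = 1.12e-07, edgeR).

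**Figure D5:**
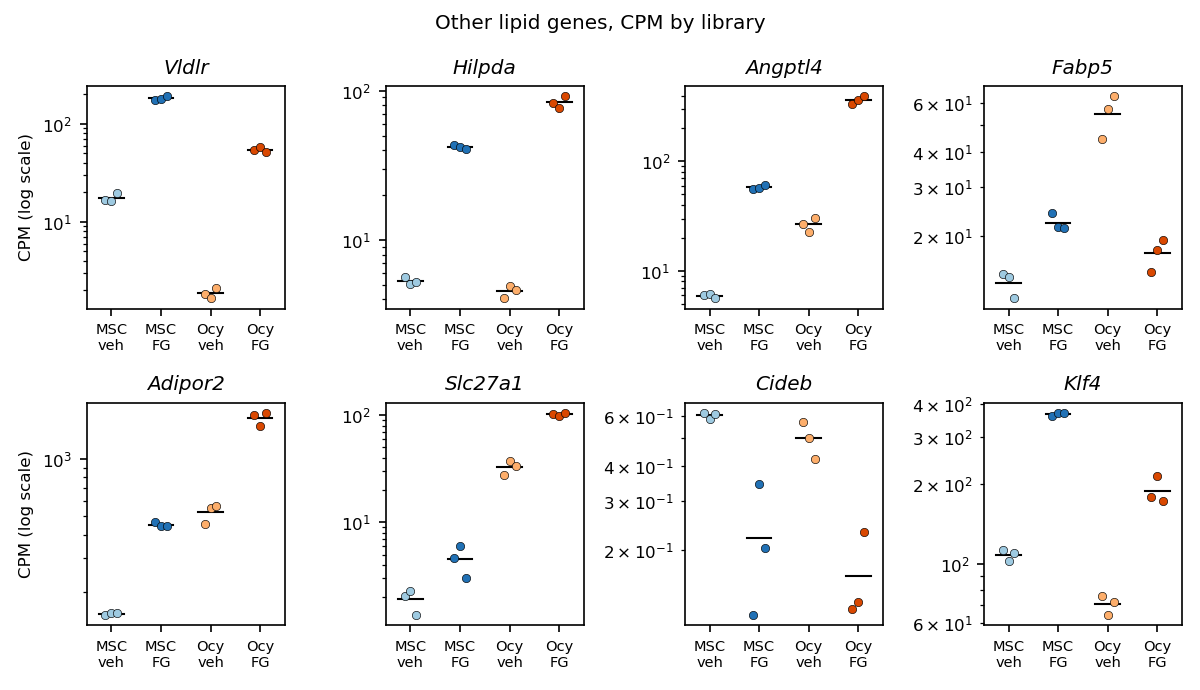
CPM on a log axis in each of the 12 libraries for 8 further genes of the same pathways, with points for libraries and bars for the mean of 3. Hilpda, Vldlr and Angptl4 rise with FG-4592 in both stages, and Fabp5 rises in MSCs and falls in osteocytes.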

How the data were processed

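RNAseq was performed on poly(A) RNA of 12 MPC2 libraries, 3 for each of 4 conditions given by the cell type and treatment labels. The authors deposited raw read-pair counts per gene and library, made with STAR 2.7.2a on mm10 and featureCounts of Subread 1.6.2 on Gencode M22 genes, from uniquely mapped reads, with no strand option and with a pair counted for each gene it overlapped, so that antisense and overlapping genes cannot be told apart. The deposited table also gave the exonic length used for FPKM.

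The filter, above 10 counts in 3 or more libraries, left 16484 genes for edgeR 4.0.16 under R 4.3.3, which ran the quasi-likelihood test with TMM factors on 12 libraries, 1 coefficient per condition and 8 residual degrees of freedom. P-values were adjusted by Benjamini-Hochberg across these genes. Genes past an absolute log2 fold change of 1 and an adjusted p under 0.05 were called, and "rose" and "fell" refer to the adjusted p alone. The script was tested on simulated data. Libraries of a condition differed beyond counting noise, with chi-square values of 9.89 to 37.7 per gene. The highest values were those of osteocyte vehicle replicate 1 with replicates 2 (33.4) and 3 (37.7), which differed from each other by 13.7. A count of 0 was taken as up to 3 counts.

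The members, the lists and the alternatives were chosen with earlier results of these data known, and the C/EBP motifs after the values were seen. Values per library are given for members past both cutoffs in a FG-4592 contrast, and at most 8 further pathway genes are named, those called in both FG-4592 comparisons or in the difference with the largest fold change in osteocytes. A gene that met this rule is not reported here. Exonic overlaps were found with GenomicRanges 1.54.1 and near-identical copies with blastn 2.17.0, at an identity of at least 98% over at least 100 bases. Promoters came from RefSeq (GRCm38.p6), from 250 bases before to 50 after a start, for 30 of 41 members. Alternatives were RLE, upper-quartile and no factors, other filters, DESeq2 1.42.0, limma 3.58.1 voom, a replicate block, removal of overlapping genes, only the conditions compared, and leaving out each library.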

Additional observations from a re-analysis of the deposited data

Results flagged for a closer look

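The FG-4592 response of osteocytes minus that of MSCs passed both cutoffs in edgeR for 8 members and for 3 of the 8 further pathway genes named in the comparison, on the log2 scale. It was positive for Cebpb at 1.70, Cebpd at 1.40, Adipoq at 1.34, Fabp4 at 1.04 and Adrb3 at 2.37, and for Hilpda at 1.23 and Vldlr at 1.48. It was negative for Elovl6 at −1.51, Dgat2 at −1.24 and Mgll at −1.33, and for Fabp5 at −2.39. The shapes differed: Hilpda and Vldlr rose in both stages and by more in osteocytes, Mgll rose in both and by more in MSCs, Elovl6 fell in osteocytes and by less in MSCs, where its call ended without single libraries, and Fabp5 rose in MSCs and fell in osteocytes. The values of Adrb3 rest on at most 17 counts in an MSC library, and its adjusted p was above 0.05 when any 1 of 9 of the 12 libraries was left out.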

How the results depend on the processing

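The number of members past both cutoffs was 3 with FG-4592 in MSCs, 6 in osteocytes, 27 between stages in vehicle, 30 in FG-4592 and 8 for the difference. The counts between stages include the 10 members that passed only through osteocyte libraries, which had to differ; without them 15 were higher and 2 lower in vehicle, and 17 and 3 in FG-4592. No called value changed sign under any alternative run. In MSCs the count was 5 without a filter on low counts and 5 with DESeq2, which added Adrb3 and Thrsp. Without overlapping genes, which takes 13 members out of the fit, it was 2 in osteocytes and 3 for the difference. Leaving out 1 library gave 3 to 4 in MSCs, 6 to 7 in osteocytes, 26 to 27 and 30 to 30 between the stages, and 7 to 11 for the difference. The difference of Adrb3 missed the test in limma voom (adjusted p = 0.248) and that of Fabp4 too (adjusted p = 0.0692). Deviations from the condition mean had correlations from −0.28 to 0.15 over the 18 same-numbered pairs, with 1 above 0.1. MSC vehicle replicate 2 and MSC FG-4592 replicate 1, of other numbers, reached 0.21. With 3 libraries a condition and no label for culture or batch, this check cannot tell whether same-numbered libraries share either. With the replicate block the counts were 3, 6, 27, 30 and 8, with Adrb3 at an adjusted p of 0.0568 for the difference. The other scalings moved the median of all genes by at most 0.0976 on the log2 scale. Depth limits Lep, Plin5 and Cidea in each library and the 10 members near the floor in MSCs.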

Other observations

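Beyond the 8 pathway genes named above, Nr1h3, Acacb and Slc27a4 also met the same rule. Nr1h3, the oxysterol receptor that acts on lipogenic genes, fell in MSCs from 8.89 ± 0.597 to 4.08 ± 0.237 CPM (−1.12) and went from 31.3 ± 4.44 to 37.7 ± 1.46 CPM in osteocytes (0.27, adjusted p = 0.0281, edgeR, and 0.15 without osteocyte vehicle replicate 1, adjusted p = 0.187), a difference of 1.39 (adjusted p = 3.18e-06, edgeR). Acacb, the mitochondrial counterpart of Acaca, differed by 1.44 (adjusted p = 2.11e-05, edgeR), with 6.99 ± 1.11 and 4.08 ± 0.397 CPM in MSCs and 11.1 ± 0.281 and 17.6 ± 2.06 CPM in osteocytes. Slc27a4, a fatty acid transporter, rose in both stages (1.26 and 1.004), the latter between 0.91 and 0.99 with other scalings.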
